A study of Mus musculus with 18 samples.

Results

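Splicing factor genes were taken as all genes of the ESC and EpiLC count tables whose mouse symbol starts with Srsf, Hnrnp, Snrp, Sf3a or Sf3b. The rule found 52 genes in each table, of 13104 genes in the ESC table and 13717 in the EpiLC table, and the same 52 in both. They comprised 11 Srsf, 20 Hnrnp, 12 Snrp, 3 Sf3a and 6 Sf3b genes, and 51 of them were annotated as protein-coding. The exception, Snrpert, is a processed pseudogene derived from Snrpe, and 43.3% of its 100-base stretches occur in other transcripts. Snrpf was not analysed here.

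Introns are removed from precursor RNA by the spliceosome, which is assembled from small nuclear ribonucleoproteins and many further proteins. SR proteins, encoded by the Srsf genes, bind exonic sequences and promote the use of nearby splice sites, whereas the heterogeneous nuclear ribonucleoproteins encoded by the Hnrnp genes coat nascent RNA and often repress splice sites. The Snrp genes encode the Sm ring and the specific proteins of the U1 and U2 particles, and the Sf3a and Sf3b genes encode the U2 subunits that hold the particle at the branch point. Many SR and hnRNP genes regulate their own messages through alternative exons that lead to decay.

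The study exposed naive mouse stem cells, and the primed cells derived from them, to the cannabinoid Δ9-THC. Female embryonic stem cells (ESCs) of BVSC clone H18, which carries Blimp1::mVenus and Stella::ECFP reporters, were grown with THC at 100 nM or with the ethanol vehicle. Epiblast-like cells (EpiLCs) were derived from them with activin A and bFGF and stayed on the same exposure. Poly(A) RNA was sequenced from 3 libraries in each of 4 groups, namely vehicle ESCs, THC ESCs, vehicle EpiLCs and THC EpiLCs. All cells came from a single clone, so the spread between libraries does not cover differences between lines.

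Total counts were 32096698, 26912806 and 28078474 in vehicle ESCs and 24295632, 30529527 and 24103915 in THC ESCs. In EpiLCs they were 28703078, 32078776 and 23427551 with vehicle and 26105319, 25090577 and 28633296 with THC. Levels are given as CPM, a gene's count scaled to a common library size by trimmed mean of M values (TMM) within each table. The counts had been batch-adjusted by the authors separately for each cell type, and same-numbered vehicle and THC libraries deviated from their group means in opposite directions. SDs and p-values therefore describe the adjusted counts, and levels are set side by side across the cell types without a test.

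The cell type labels were checked against marker genes. The 12 naive pluripotency markers summed to 4841, 5207 and 4990 CPM in vehicle ESCs and to 367, 361 and 398 CPM in vehicle EpiLCs. The 8 EpiLC markers summed to 164, 168 and 178 CPM in vehicle ESCs, where Fgf5 and Wnt8a had no row, and to 1979, 2107 and 1767 CPM in vehicle EpiLCs. Each label thus matched its markers. In ESCs 2 of the 6 EpiLC markers with a row fell with THC, Pou3f1 with a log2 fold change of -0.96 and Sox3 with -0.40, and edgeR called no naive marker in either cell type. DESeq2 called 1 naive marker, Klf2, lower in ESCs (DESeq2 adjusted p = 0.0113), where edgeR gave a log2 fold change of -0.21, or -0.04 with offsets for the GC content and length of exons. With these offsets Pou3f1 was at -0.73 and Sox3 at -0.13, and neither was called. Both had under 5 CPM in vehicle ESCs, as did the EpiLC marker Otx2, whose THC libraries were all above vehicle, with an uncalled log2 fold change of 0.22. Of 4 pluripotency markers listed for both cell types edgeR called 0. DESeq2 called Pou5f1 in ESCs (DESeq2 adjusted p = 0.0496), where edgeR gave -0.24, or -0.17 with the offsets. In EpiLCs Pou5f1 was at -0.23 and was not called by DESeq2 (DESeq2 adjusted p = 0.163). The neural list summed to between 61.4 and 119 CPM in every library, with Tubb3 its most abundant gene. Markers of primitive endoderm, mesoderm, fibroblasts and 2-cell-like cells were low, and their highest sum in any library was 23.3 CPM, for the mesoderm list in a THC ESC library.

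In vehicle ESCs the 10 highest mean levels per kilobase of exon were all those of Hnrnp genes, although Hnrnph3, Hnrnpll and Hnrnpr ranked 48, 49 and 51 of the 52. Exon length was the union over all annotated transcripts of a gene, 22199 bases for Hnrnpr and 6521 for Snrpc. The order of genes therefore depends on their annotation as well as on their counts. Hnrnpa1, which binds splicing silencers, had a level of 577 ± 5.47 CPM per kilobase (SD, n = 3) and Hnrnpa3 had 303 ± 10.8 CPM per kilobase. The next levels were 196 ± 3.21 CPM per kilobase for Hnrnpf and 176 ± 3.33 for Hnrnpa2b1, and none of these 4 ranges overlapped its neighbour. Of the 100-base stretches of Hnrnpa1, Hnrnpa3 and Hnrnpf, 25.4%, 27.5% and 56.3% occur in other transcripts, so their unique counts are uncertain. Hnrnpa1 also had the highest level in vehicle EpiLCs, at 805 ± 65.1 CPM per kilobase, and the ranges of Hnrnpa3 (373 ± 6.02) and Hnrnpa2b1 (354 ± 25.7 CPM per kilobase) overlapped there. The highest level in the other families in vehicle ESCs was 110 CPM per kilobase for Snrpe, 89.4 for Srsf5 and 61.7 for Sf3a3. The range of Srsf5 overlapped that of Srsf1 (89.1), and the range of Sf3a3 overlapped those of Sf3b2 (58.5) and Sf3b4 (57.8).

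Between the cell types, 43 of the 52 genes had a higher mean CPM in vehicle EpiLCs than in vehicle ESCs, beside 50% of all 12410 genes in both tables. The median ratio of EpiLC to ESC CPM was 1.22 for the splicing factor genes and 1 for all genes. All 12 Snrp genes, and 33 of the 52 members, were higher in each vehicle EpiLC library than in every vehicle ESC library, beside 37.1% of all genes in both tables. Their summed CPM was 1240, 1250 and 1360 in vehicle ESCs and 2228, 1950 and 2248 in vehicle EpiLCs. The Srsf and Hnrnp sums were 1.21 and 1.25 times as high in vehicle EpiLCs, and the Sf3a and Sf3b sums 0.998 and 0.964 times. These ratios compare separately adjusted tables and were not tested.

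Snrpn and Hnrnph3 had the largest ratios of the 52 genes, and Hnrnph2 the smallest. Snrpn, an imprinted gene encoding a tissue-restricted Sm protein, was at 27.9, 32.6 and 36.4 CPM in vehicle ESCs and at 91, 101 and 80.2 CPM in vehicle EpiLCs, a ratio of 2.81. Hnrnph3 was at 37, 38.7 and 41.9 CPM in vehicle ESCs and at 110, 101 and 112 CPM in vehicle EpiLCs, a ratio of 2.74. Its X-linked relative Hnrnph2 went the other way, from 188, 170 and 165 CPM to 102, 120 and 92.7 CPM, a ratio of 0.601. None of these 3 genes had overlapping vehicle libraries between the cell types. Of the exonic bases of Snrpn, 34.1% lie in other genes, so its reads cannot all be assigned to it. In the Srsf family Srsf11 had the largest ratio, 1.76, and Srsf5 the smallest, 0.975. Snrpa had the smallest ratio of the Snrp genes, 1.33, and Sf3b6 and Sf3b1 bounded the Sf3a and Sf3b genes at 1.31 and 0.79.

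THC in ESCs was examined in the fit over the whole ESC table. Among the splicing factor genes, 7 rose and 1 fell at an edgeR Benjamini-Hochberg adjusted p of at most 0.05. This is 15.4% of the 52 genes, beside 6.91% of all genes tested, of which 3.37% were called higher and 3.55% lower. An unadjusted p under 0.05 was reached by 18 of the 52 genes (34.6%) and by 28.7% of all genes. The median log2 fold change of the members was 0.07, beside 0.00 for all genes, and 35 of 52 were above 0. With offsets for the GC content and length of exons the member median was -0.01 and 29 of 52 genes were below 0. Leaving out THC library 1, without the offsets, brought the median to 0.04.

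The edgeR calls in ESCs were lost under several other settings. No splicing factor gene was called with the GC and length offsets, where 2 of all 13104 genes were called. In a fit of all 12 libraries no member was called either, and 31 of 12410 genes were. A block for replicate number also left no member called, and 5 of 13104 genes called. The same held when any single library of either ESC group was left out, where at most 1 of all genes was called. Log2 fold changes were then 0.23 to 0.31 for Srsf1, 0.22 to 0.24 for Srsf3 and -0.18 to -0.15 for Snrpa. The fit over the whole ESC table gave 0.28, 0.23 and -0.17 for these genes, as did the block. The 12-library fit gave 0.27, 0.22 and -0.18. Base composition moved with the calls across the whole table. Below the median exon GC content of 49.3%, 407 genes were called higher and 24 lower, and at or above it 32 were called higher and 440 lower. All 7 members called higher were among the 39 members below that median, and the 1 called lower was among the 13 above it. What part base composition had in the calls of single genes was not tested.

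The SR genes held 4 of the 7 members that rose in ESCs. Srsf1, the archetypal SR protein gene, was at 525, 525 and 475 CPM with vehicle and at 597, 599 and 662 CPM with THC. All THC libraries lay above all vehicle libraries, a log2 fold change of 0.28 with an SE of 0.0576 (edgeR Benjamini-Hochberg adjusted p = 0.042); errors of later log2 fold changes are SEs too. Srsf3, which also couples splicing to RNA export, was at 571, 585 and 582 CPM with vehicle and at 687, 673 and 679 CPM with THC. Its groups were likewise separate, with a log2 fold change of 0.23 ± 0.0251 (edgeR Benjamini-Hochberg adjusted p = 0.0271).

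Srsf2, also known as SC35 and a marker of nuclear speckles, was at 193, 193 and 198 CPM with vehicle and at 222, 223 and 219 CPM with THC in ESCs. The groups did not overlap, and the log2 fold change was 0.19 ± 0.0247 (edgeR Benjamini-Hochberg adjusted p = 0.0283). Of its exonic bases, 25.3% lie in other genes. Srsf5 was at 350, 360 and 359 CPM with vehicle and at 400, 390 and 393 CPM with THC. This small separation gave a log2 fold change of 0.15 ± 0.0255 (edgeR Benjamini-Hochberg adjusted p = 0.0337). With GC and length offsets the log2 fold changes of Srsf1, Srsf3, Srsf2 and Srsf5 were 0.15, 0.12, 0.13 and 0.02, and none was called.

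Srsf10 lay just outside the threshold with a log2 fold change of 0.18 (edgeR Benjamini-Hochberg adjusted p = 0.0504), and DESeq2 called it (DESeq2 adjusted p = 0.02). Its value was -0.0025 with the GC and length offsets. Over the 11 Srsf genes the median log2 fold change in ESCs was 0.15, and 0.05 with the GC and length offsets. The median exon GC content of the family was 41.4%, the lowest of the families. Srsf9 had the lowest log2 fold change of the family, -0.09 (edgeR Benjamini-Hochberg adjusted p = 0.197), from 91.8, 91.1 and 97.2 CPM with vehicle to 89, 89.9 and 84.5 CPM with THC, and was at -0.05 with the offsets. Srsf12, at 2.1 CPM in vehicle ESCs, was too low for the rule that chose the genes described singly, and its log2 fold change was 0.3 (edgeR Benjamini-Hochberg adjusted p = 0.162).

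**Figure D1:**
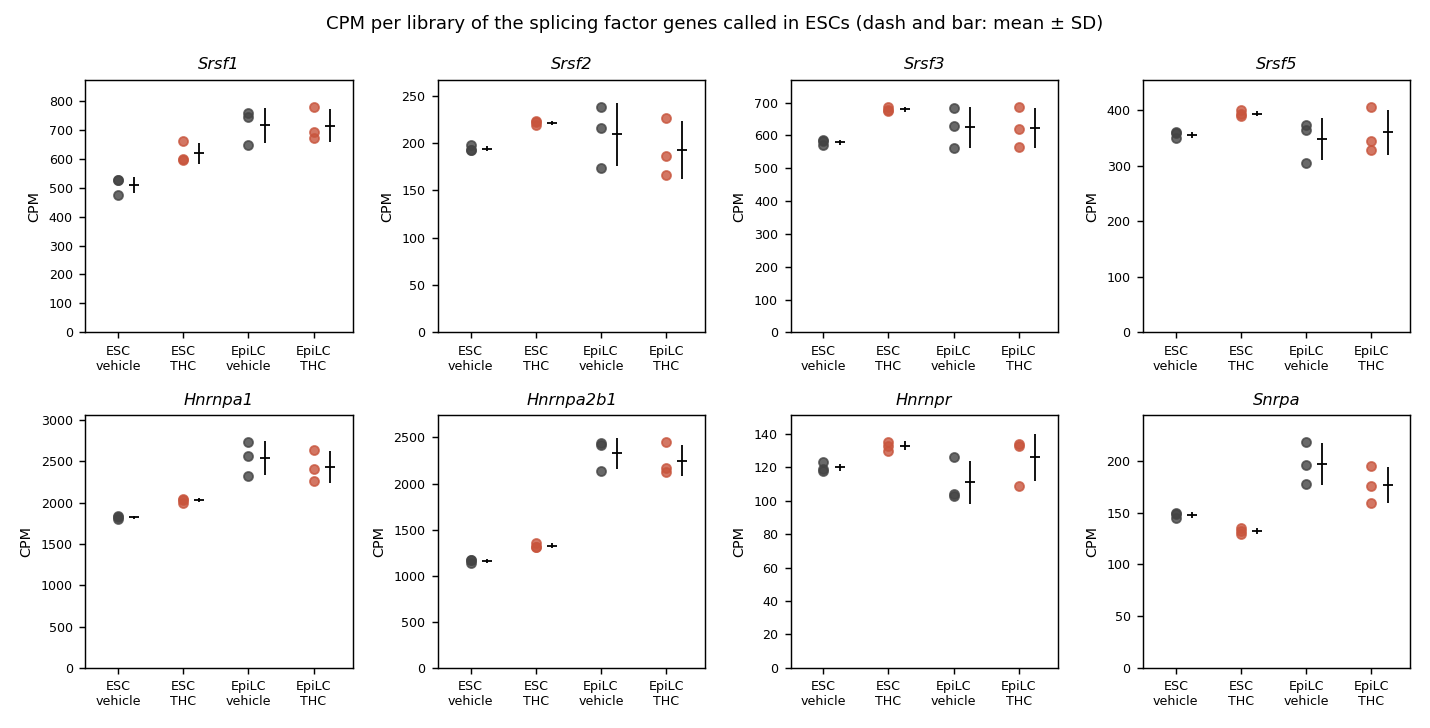
CPM per library of the 8 splicing factor genes called in ESCs, for the 4 groups of 3 libraries. Each point is a library, and the dash and bar are the mean ± SD. The THC libraries of ESCs lie apart from the vehicle libraries in each panel, whereas the EpiLC groups overlap.

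Among the Hnrnp genes 3 rose in ESCs. Hnrnpa2b1, a reader of RNA motifs in splicing and transport, was at 1170, 1133 and 1172 CPM with vehicle and at 1308, 1354 and 1316 CPM with THC. The groups were separate, and the log2 fold change was 0.19 ± 0.0292 (edgeR Benjamini-Hochberg adjusted p = 0.0301). Hnrnpa1 was at 1838, 1803 and 1820 CPM with vehicle and at 2000, 2044 and 2036 CPM with THC. Its groups did not overlap either, with a log2 fold change of 0.16 ± 0.0264 (edgeR Benjamini-Hochberg adjusted p = 0.0321).

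Hnrnpr was at 119, 123 and 118 CPM with vehicle and at 133, 130 and 135 CPM with THC in ESCs. That separation corresponded to a log2 fold change of 0.14 ± 0.029 (edgeR Benjamini-Hochberg adjusted p = 0.042). DESeq2 did not call Hnrnpr (DESeq2 adjusted p = 0.0603). The highest log2 fold change of the family was that of Hnrnpdl, which edgeR did not call and DESeq2 did. Its libraries were at 262, 217 and 235 CPM with vehicle and at 261, 314 and 295 CPM with THC, a log2 fold change of 0.28 ± 0.0884 (edgeR Benjamini-Hochberg adjusted p = 0.0963, DESeq2 adjusted p = 0.014). The groups of Hnrnpdl overlapped through the first library of each. Hnrnpab had the lowest log2 fold change, -0.11 ± 0.0352 (edgeR Benjamini-Hochberg adjusted p = 0.109). The offsets for GC content and length put Hnrnpa2b1, Hnrnpa1 and Hnrnpr at 0.05, 0.07 and 0.03, and none was called. The family median was 0.07 in ESCs and -0.01 with those offsets.

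The Snrp family held the gene that fell. Snrpa, which encodes an RNA-binding protein of the U1 particle, was at 150, 145 and 149 CPM with vehicle and at 129, 135 and 132 CPM with THC in ESCs. All THC libraries were below all vehicle libraries, and the log2 fold change was -0.17 ± 0.0296 (edgeR Benjamini-Hochberg adjusted p = 0.0344). With GC and length offsets it was -0.11 (edgeR Benjamini-Hochberg adjusted p = 0.143). Snrpn, the highest of the family, was at 41.6, 35.9 and 31.7 CPM with THC, within reach of its vehicle libraries, and its log2 fold change was 0.17 ± 0.126 (edgeR Benjamini-Hochberg adjusted p = 0.406), or 0.10 with the offsets. Single libraries moved it, to 0.07 without THC library 1 and to 0.27 without vehicle library 3. The Snrp median was 0.03 in ESCs, -0.03 with the GC and length offsets, and between 0.01 and 0.07 with single libraries left out.

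None of the 9 Sf3a and Sf3b genes was called in ESCs, where the smallest edgeR Benjamini-Hochberg adjusted p was 0.14 and 1 gene, Sf3b1, had an unadjusted p under 0.05. DESeq2 called 0 of them as well. Sf3b1, the subunit that contacts the branch point, was at 624, 599 and 602 CPM with vehicle and at 626, 654 and 654 CPM with THC. Its log2 fold change was 0.08, and -0.04 with the GC and length offsets. Sf3b4 had the lowest value, -0.04, and 0.03 with those offsets. It ranged from -0.1011 to -0.0055 with a library left out.

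Counted by separation alone, 20 of the 52 genes (38.5%) had ESC groups that did not overlap, beside 32.6% of all genes. In 17 of them the THC libraries were above, beside 16.7% of all genes, and in 3 below, beside 15.9%. With the GC and length offsets 11 were separate (21.2%), beside 24.5% of all genes, so the share of the members was then below that of all genes. The summed CPM of all members was 18878, 18880 and 19068 with vehicle and 20128, 20176 and 20088 with THC. The Srsf sum was 2777, 2745 and 2700 with vehicle and 3062, 3103 and 3172 with THC.

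In EpiLCs no splicing factor gene was called by edgeR with Benjamini-Hochberg adjustment, and neither was any of the 13717 genes, a background of 0%. DESeq2 called 71 genes and 0 members, and the fit of all 12 libraries called 411 of 12410 genes and 0 members. An unadjusted p under 0.05 was reached by 8 members (15.4%), 7 of them lower with THC, beside 15.1% of all genes. The median log2 fold change was -0.11 for the members and 0.00 for all genes, and 43 of 52 members were below 0. With GC and length offsets the median was -0.13 and 49 members were below 0. Leaving out vehicle library 2 brought the median to -0.06, and leaving out THC library 2 to -0.07.

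The groups did not overlap for 15 members in EpiLCs (28.8%), beside 21.8% of all genes. In 13 the THC libraries were below, beside 10.6% of all genes, and in 2 above, beside 11.2%. With the GC and length offsets 17 were separate (32.7%), beside 20.4% of all genes. All 12 Snrp genes had log2 fold changes below 0, from -0.32 to -0.12, with a median of -0.16. The Snrp median was -0.24 without THC library 2. The median was -0.25 for Sf3a, -0.17 for Sf3b and -0.06 for Hnrnp. Single libraries moved these medians while each stayed below 0. Without vehicle library 2 the Sf3b median was -0.10 and the Hnrnp median -0.03, and the Hnrnp median was -0.09 without vehicle library 3 and -0.10 without THC library 3. For Srsf the median was -0.0049, and it was above 0 without vehicle library 2 (0.03) or THC library 2 (0.0061) and down to -0.07 without others. The GC and length offsets gave medians of -0.23 for Sf3a, -0.20 for Sf3b, -0.17 for Snrp, -0.11 for Hnrnp, with all 20 genes below 0, and -0.07 for Srsf.

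Sf3a2, a U2 subunit, was at 109, 124 and 117 CPM in vehicle EpiLCs and at 101, 89 and 94.9 CPM in THC EpiLCs. The groups were separate, and the log2 fold change of -0.30 ± 0.0749 missed the threshold (edgeR Benjamini-Hochberg adjusted p = 0.196). Snrpn was at 72.8, 64.4 and 81.7 CPM with THC in EpiLCs, overlapping its vehicle libraries through the third of each. Its log2 fold change was -0.32 ± 0.119 (edgeR Benjamini-Hochberg adjusted p = 0.292). Srsf9 was at 136, 128 and 128 CPM with vehicle and at 109, 118 and 116 CPM with THC. Its THC libraries were all lower, with a log2 fold change of -0.19 ± 0.0597 (edgeR Benjamini-Hochberg adjusted p = 0.229), or -0.11 with the GC and length offsets.

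Hnrnpl, which binds CA-rich RNA, was at 900, 968 and 932 CPM in vehicle EpiLCs and at 855, 802 and 833 CPM in THC EpiLCs. The groups did not overlap, and its log2 fold change of -0.17 ± 0.068 was the lowest of the Hnrnp genes (edgeR Benjamini-Hochberg adjusted p = 0.318). The highest in their families among genes with at least 10 CPM were Sf3b1 at 0.19, Hnrnpr at 0.18 and Srsf11 at 0.16, none of them called. With the GC and length offsets these were 0.02, -0.04 and 0.02. Without THC library 2 Hnrnpr was at 0.11 and Srsf11 at 0.0095, and without vehicle library 1 they were at 0.28 and 0.26. Srsf12, with few reads, was at 1.82, 2.48 and 2.3 CPM with vehicle and at 3.55, 2.68 and 2.97 CPM with THC. Its groups were separate, and its log2 fold change of 0.48 was the highest of the 52 (edgeR Benjamini-Hochberg adjusted p = 0.27). Snrpe had the highest value of the Snrp genes, -0.12, and was at -0.07 with the offsets, -0.06 without vehicle library 1 and -0.21 without THC library 2.

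**Figure D2:**
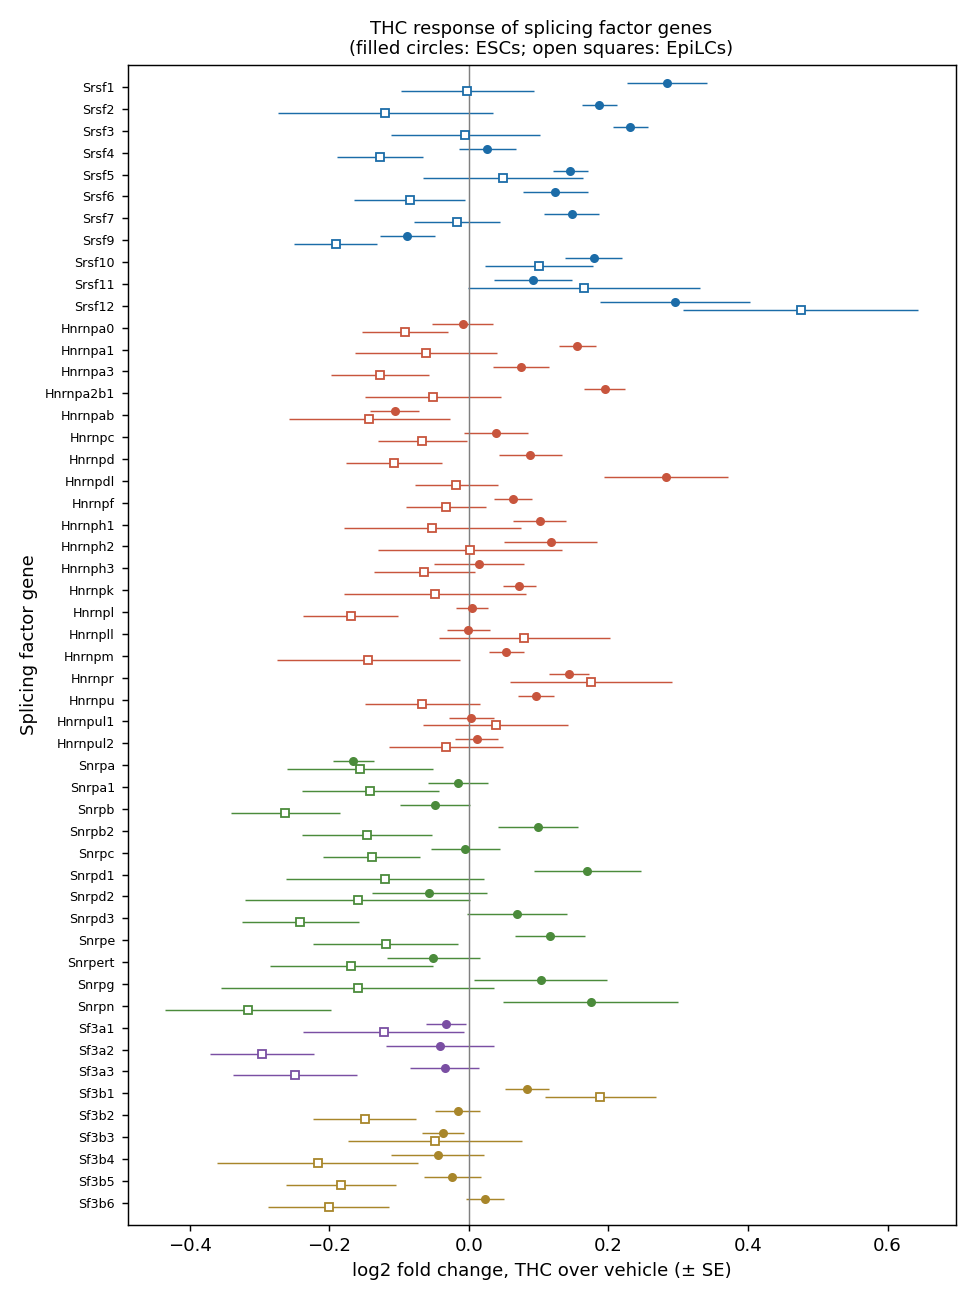
Log2 fold change of each of the 52 splicing factor genes, THC over vehicle, with its SE. Filled circles are ESCs and open squares EpiLCs, coloured by family. In EpiLCs 43 of 52 values lie below 0, and in ESCs 17.

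The difference between the THC effects of the cell types was tested in a fit over all 12 libraries and 12410 genes. No member was called by edgeR with Benjamini-Hochberg adjustment, where 4 genes in all (0.0322%) were, and DESeq2 called 133 genes and 0 members. An unadjusted p under 0.05 was reached by 6 members (11.5%), beside 13.7% of all genes. The median difference, EpiLC minus ESC, was -0.14 on the log2 scale, and 44 of 52 values were below 0, beside a median of 0.01 and 5842 of 12410 below 0 for all genes. Snrpn had the lowest, -0.47 (edgeR Benjamini-Hochberg adjusted p = 0.278). A differing response of any single splicing factor gene was therefore not detected, although 8 members were called in ESCs and 0 in EpiLCs.

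A list of 129 further splicing genes was read from the same fits. In ESCs edgeR called 3 higher and 3 lower, 4.65% of the list beside the 6.91% of all genes, and in EpiLCs none. The genes that rose were Lsm8, of the LSm ring on U6 RNA, Tardbp and Rbm25, with log2 fold changes of 0.20, 0.15 and 0.18. Those that fell were Prpf40b and Pdcd7, with -0.22 and -0.19, and Upf3a of nonsense-mediated decay, with -0.17. None of these 6 was called with the GC and length offsets. Lsm8, Tardbp and Rbm25 were then at 0.04, 0.06 and 0.0082, and Prpf40b and Pdcd7 at -0.08 and -0.09, whereas Upf3a was at -0.18. With RLE scaling 5 of the list were called, beside 878 of all 13104 genes, without Lsm8 (edgeR Benjamini-Hochberg adjusted p = 0.0502). DESeq2 also called 5, beside 753 of all 13104 genes, without Lsm8 (DESeq2 adjusted p = 0.0557) and Upf3a (DESeq2 adjusted p = 0.0893) and with Tra2a. The list medians were 0.02 in ESCs and -0.06 in EpiLCs, and -0.01 and -0.10 with the offsets. With a library left out they ranged from 0.0184 to 0.0339 in ESCs and from -0.0854 to -0.0375 in EpiLCs.

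By group, the 6 partners of the branch point and U2 particle had an EpiLC median log2 fold change of -0.21, all 6 below 0, with U2af1 lowest at -0.27 and Sf1 highest at -0.02. The 20 tri-snRNP and LSm genes had a median of -0.13, with Usp39 at -0.24 and Prpf4b at 0.22. With a library left out this median ranged from -0.16 to -0.08 and Usp39 from -0.33 to -0.13. The 22 other alternative splicing regulators had a median of 0.09 without the offsets and -0.04 with them. Mbnl1, a muscleblind family regulator, was at 11.7, 10.7 and 11 CPM in vehicle EpiLCs and at 14.3, 16 and 15.4 CPM in THC EpiLCs. Its groups were separate, and its log2 fold change of 0.45 ± 0.0779 missed the threshold (edgeR Benjamini-Hochberg adjusted p = 0.144). Mbnl1 was at 0.23 and Prpf4b at 0.08 with the GC and length offsets. In the SR kinase group Clk1 was lowest, at -0.36, and Srpk2 highest, at 0.25. With the offsets Clk1 was at -0.50 and Srpk2 at 0.07. Clk1 ranged from -0.45 to -0.20 with a library left out.

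In the other groups in EpiLCs the lowest and highest values were -0.22 for Snrnp25 and 0.18 for Luc7l2 among the U1, U5 and minor spliceosome proteins, and -0.35 for Bud31 and 0.11 for Ddx46 among the catalytic and helicase genes. They were -0.27 for Eif4a3 and 0.29 for Smg1 among the exon junction and decay genes, and -0.17 for Gemin6 and 0.08 for Gemin8 in the SMN complex, which loads Sm rings. Smg1 was at 0.07 with the GC and length offsets, Snrnp25 at -0.13, and Luc7l2 and Ddx46 at 0.0011 and -0.0027. With a library left out Ddx46 ranged from 0.03 to 0.18 and Smg1 from 0.18 to 0.39. Luc7l2 then ranged from 0.13 to 0.28 and Snrnp25 from -0.34 to -0.15. None of these genes was called in the fit over the EpiLC table.

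In ESCs the extremes of the groups that edgeR did not call ran from -0.25 to 0.35, and of these DESeq2 called Tra2a (DESeq2 adjusted p = 0.0454). The highest were Mbnl3, at 2.83 CPM in vehicle ESCs, with 0.35, Prpf39 at 0.29, Lsm6 at 0.21, Smg1 at 0.17, Tra2a at 0.15, Bud31 at 0.11, Gemin6 at 0.10 and Phf5a at 0.03. The lowest were Mbnl2 at -0.25, Ddx41 and Gemin8 at -0.15, Sart1 at -0.12, Puf60 at -0.08 and Clk3 at -0.07. Most of these values were nearer 0 with the GC and length offsets, or changed sign. Prpf39 was then at 0.09, Smg1 and Tra2a at 0.08, Bud31 at 0.05, Gemin6 at 0.0073, Ddx41 at -0.04 and Sart1 at -0.03, and Phf5a, Puf60 and Clk3 changed sign. Mbnl2 and Gemin8 were further from 0, at -0.30 and -0.21.

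Promoters are shown for SR genes that edgeR called higher in ESCs, calls that were lost with the offsets. RefSeq promoter windows were found for 45 of the 52 genes, as 62 windows, and were cut to the 250 bases before the start. Windows holding annotated exon were left out of the display. Capitals mark matches on either strand to any of 6 motifs, which were chosen with the data known, and overlapping matches run together. The motifs were the GC box, ETS, YY1, CCAAT box, E-box and TATA box. A further motif, that of NRF1, was searched while choosing them and was more frequent in the windows of the members than in all windows. It is not shown, and its shares are not given here. Build GRCm38.p6 places them at chr11:88047123-88047372 on the plus strand (Srsf1), chr11:116853095-116853344 on the minus strand (Srsf2) and chr12:80945249-80945498 on the plus strand (Srsf5).
Srsf1: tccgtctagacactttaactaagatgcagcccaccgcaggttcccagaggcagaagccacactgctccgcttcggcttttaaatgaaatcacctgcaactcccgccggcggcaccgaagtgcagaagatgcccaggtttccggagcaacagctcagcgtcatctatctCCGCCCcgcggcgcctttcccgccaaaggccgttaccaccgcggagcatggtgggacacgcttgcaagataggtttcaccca
Srsf2: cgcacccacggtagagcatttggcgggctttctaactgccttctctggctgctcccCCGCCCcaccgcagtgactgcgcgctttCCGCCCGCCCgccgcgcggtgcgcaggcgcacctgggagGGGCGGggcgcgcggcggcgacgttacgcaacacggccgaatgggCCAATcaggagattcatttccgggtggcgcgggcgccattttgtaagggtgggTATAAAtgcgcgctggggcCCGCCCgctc
Srsf5: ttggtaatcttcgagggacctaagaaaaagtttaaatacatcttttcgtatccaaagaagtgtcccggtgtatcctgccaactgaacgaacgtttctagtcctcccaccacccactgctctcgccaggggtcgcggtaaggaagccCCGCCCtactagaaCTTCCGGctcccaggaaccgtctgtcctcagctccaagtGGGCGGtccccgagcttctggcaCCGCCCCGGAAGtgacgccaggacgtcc

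Among the 62 windows, the GC box GGGCGG was in 42 (67.7%), beside 32.7% of all 32851 windows, and the ETS motif CCGGAAG in 19 (30.6%), beside 6.91%. The YY1 motif ATGGCGGC was in 4 (6.45%), beside 1.03%, and the CCAAT box in 26 (41.9%), beside 33.8%. The E-box CACGTG was in 5 (8.06%), beside 6.02%, and the TATA box TATAAA in 6 (9.68%), beside 12.4%. Srsf2 holds both a CCAAT and a TATAAA match, Srsf5 has ETS matches and Srsf1 a single GGGCGG match. Of the 45 genes with windows, 33 held a GC box and 15 an ETS motif. All windows were the only background, and the members were not compared with other expressed genes. A match describes the letters of these windows only.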

How the data were processed

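Bulk poly(A) RNA-seq counts per gene were deposited by the authors as tables adjusted with ComBat-seq, separately for each cell type. The submitters' notes and methods name bcl2fastq 2.19.1.403, FastQC, STAR, HTSeq and DESeq2, and both mm10 and GRCm39 as genome. Counting was unstranded and used unique alignments, so overlapping genes and near-identical copies share or lose reads. The batches were not given in the sources used here, and libraries were made with KAPA or ABClonal kits. PGCLC libraries were not analysed here.

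Counts were tested in R 4.3.3 with edgeR 4.0.16 (limma 3.58.1), using quasi-likelihood tests, TMM and genes with more than 10 counts in total, a filter that removed no gene, and Benjamini-Hochberg adjustment at 0.05 over all genes. Alternatives were DESeq2 1.42.0, RLE scaling, filters, splines of 5 degrees of freedom on exon GC content and length, a replicate block and each library left out. On simulated data the share of false calls was above the threshold with DESeq2 in both tables and with edgeR in EpiLCs, and close to it with edgeR in ESCs. Simulated libraries were drawn independently, whereas same-numbered libraries here were tied in opposite directions, so these shares need not hold for the real counts. Exon lengths, each the union over all transcripts of a gene, came from GENCODE M21 (GRCm38), and promoters from RefSeq GRCm38.p6. Tables and plots used Python 3.11.15, pandas 2.3.3 and matplotlib 3.10.9.

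The members and lists were chosen with earlier results of these data known. Genes described singly were, in each family with Sf3a and Sf3b joined, those with the highest and lowest log2 fold change in each cell type, the highest CPM per kilobase in vehicle ESCs, and the largest and smallest EpiLC to ESC ratio, at a mean of at least 10 CPM, and, in each group of other splicing genes, those with the highest and lowest log2 fold change. Other called genes, Srsf10 and Srsf12 were named after their values were seen, as was the split by GC content. 1 gene that the rule selects is not reported here.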

Additional observations from a re-analysis of the deposited data

How the results depend on the processing

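Of 8 members called in ESCs, 0 were called with the replicate block, the GC and length offsets, both together, all 12 libraries in one fit, or any single library left out (0 to 0). The 6 other splicing genes called in ESCs went to 0 under the same settings (0 to 0 with a library left out). In EpiLCs the fit of all 12 libraries called 2 of the 129 other splicing genes, beside 411 of 12410 genes, and the other settings called 0. Of these 2, Puf60 was at -0.22 in that fit (edgeR Benjamini-Hochberg adjusted p = 0.0382). The other was among the catalytic and helicase genes. RLE scaling gave 7 members higher and 1 lower in ESCs, beside 878 of all 13104 genes called. Both filters gave the same member counts, beside 906 genes called. DESeq2 called 8 members higher and 1 lower, beside 753 of 13104 genes. The cause of the lost calls was not tested, although leaving out a library also removes samples.

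The ESC member median of 0.07 was -0.01 with the GC and length offsets (-0.0123, and -0.0124 with the replicate block as well) and 0.0425 to 0.0645 with a library left out. In ESCs it was 0.0450 without vehicle library 1 and 0.0425 without THC library 1. The values were 0.0645 and 0.0633 for libraries 2, and 0.0601 and 0.0599 for libraries 3. Leaving out the vehicle or the THC library of a number was therefore not a separate check. The EpiLC median of -0.11 ranged from -0.1191 to -0.0583 with a library left out, and the count of separate ESC members fell from 20 to 11 with the offsets. In EpiLCs and in the interaction 0 members were called under each setting run (0 to 0 with a library left out).

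With the GC and length offsets 18 of the 52 members (34.6%) changed sign in ESCs, beside 23.2% of all genes, and 6 (11.5%) in EpiLCs, beside 14.8%. Of the uncalled genes whose log2 fold change is described singly, those that changed sign in ESCs, with the offsets alone and with the replicate block as well, were Clk3 (0.0219 and 0.0208), Phf5a (-0.0264 and -0.0267), Puf60 (0.0208 and 0.0206), Sf3b1 (-0.0448 and -0.0447), Sf3b4 (0.0330 and 0.0327) and Srsf10 (-0.0025 and -0.0025). In EpiLCs they were Ddx46 (-0.0027 and -0.0038) and Hnrnpr (-0.0419 and -0.0424), and Luc7l2 with the block (-4.53e-05). With a library left out, Phf5a in ESCs ranged from -0.0242 to 0.0674, Gemin8 in EpiLCs from -0.0013 to 0.1584 and Sf1 in EpiLCs from -0.0587 to 0.0304.

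Same-numbered libraries were tied to each other in opposite directions, and so were not independent. Deviations from the group mean of same-numbered vehicle and THC libraries correlated across genes at -0.987 to -0.977 in ESCs and -0.985 to -0.979 in EpiLCs, and those of differently numbered libraries at 0.369 to 0.604 and 0.223 to 0.695. Every library thus correlated least with the one sharing its number. Deviations within a group sum to 0, so negative values for same-numbered libraries make those of the others positive on average. The replicate block took the calls over all ESC genes from 906 to 5 and the interaction from 4 to 0. Low counts limit Srsf12 and Snrpert.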
